A study of Mus musculus with 8 samples.

Results

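Hap1, Corin and Slc26a7 are 3 protein-coding genes of the 55450 genes counted in nuclear RNA of GABAergic neurons, which are the inhibitory neurons of the brain. The 3 genes were chosen by the measured difference in read counts between the groups, since their level was much higher in mice with a mutant thyroid hormone receptor than in control mice, and because they stand outside the gene families by which other genes of the series were grouped. The choice rests on the same contrast that is described here and gives no numeric threshold, so their rise is a description and carries no test. The 3 genes were found by their GENCODE M21 symbols, and all 3 passed the filter on low counts.

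The nuclei came from the cortex of juvenile mice, whose exact age is not given in the sources used here, with an individual cortex behind each library. Mice of both groups carried a Cre driver active in GABAergic neurons and a Cre-dependent nuclear fluorescent protein, by which the nuclei were sorted. Mutants (Thra+/AMI) also carried a Cre-dependent allele of Thra whose product is a thyroid hormone receptor with dominant-negative action, and controls were Thra+/+. The Cre driver, and thus the GABAergic neurons it reaches, is not named in the labels. The series holds 4 control and 4 mutant samples, but the tables of mutants 7 and 10 showed the same count for each of 21975 detected genes. They differed by less than sampling noise, so they entered as 1 sample, named mutant 7 here, which leaves 4 controls and 3 mutants.

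Total counts ran from 11797788 to 13804734 in controls and from 10747169 to 12941251 in mutants, so depth overlapped between the groups. Gad1 and Gad2, which encode the enzymes of GABA synthesis, were at 520.1 to 663.8 and 367.0 to 497.3 CPM (read counts relative to the scaled library total), whereas Slc17a7, the vesicular glutamate transporter of excitatory neurons, was at 46.9 to 94.5 CPM. Dlx1 and Dlx6, 2 of 8 general GABAergic markers, were listed at 0 in all 7 libraries, so a gene listed at 0 is not read as absent from these nuclei. Control 4 and mutant 8 had 4 and 3 reads of 4 Y-linked genes, against 5094 to 6644 in the other 5 libraries. Longer genes were relatively higher in control 4 than in control 1 (Spearman's rho of the log2 ratio of 1 to 4 with genomic length -0.60 across genes, which are not replicates), against 0.18 for controls 2 and 3. For mutants over controls this rho was 0.085. Because of the trend between single controls, the values of the 3 genes are also given below with an offset for length. Thra itself, the gene that carries the mutation, was at 105.5 to 125.5 CPM in controls and 77.6 to 96.3 CPM in mutants (edgeR quasi-likelihood test, Benjamini-Hochberg adjusted p 0.0543), and its counts add up both alleles.

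Hap1 encodes huntingtin-associated protein 1, a cytoplasmic adaptor that links huntingtin and membrane cargo to kinesin and dynactin and that is especially abundant in the hypothalamus. Among its cargoes are receptors for neurotrophins and GABA, and the Joubert syndrome protein Ahi1 is a stable partner. Corin encodes a transmembrane serine protease best known from the heart, where it cleaves the precursor of atrial natriuretic peptide. That peptide acts on the receptor Npr1 to raise cyclic GMP. Slc26a7 encodes an anion transporter of the SLC26 family, best known from the kidney, stomach and thyroid gland.

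Hap1 was at 72.5, 63.8, 72.7 and 53.2 CPM in controls 1 to 4 and at 272.3, 268.4 and 250.5 CPM in mutants 6, 7 and 8. The groups did not overlap, and the lowest mutant stood 3.45 times above the highest control. Control 4 was the lowest control. The mean went from 65.5 ± 9.20 CPM (SD, n = 4) to 263.7 ± 11.6 CPM (SD, n = 3), which is 2.01 as a log2 fold change (SE 0.13). These values rested on 660 to 955 reads in controls and 2924 to 3480 in mutants. Among all 16448 tested genes, Hap1 ranked 23 by the CPM gained. In bulk nuclei, more cells of a type that expresses a gene and more RNA of that gene per nucleus cannot be told apart.

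Corin was at 5.31, 9.45, 8.45 and 7.10 CPM in controls 1 to 4 and at 54.4, 44.8 and 42.9 CPM in mutants 6, 7 and 8. Again every mutant lay above every control, with the lowest mutant 4.54 times above the highest control. The lowest value belonged to control 1 and the highest to mutant 6. The mean went from 7.58 ± 1.79 CPM (SD, n = 4) to 47.4 ± 6.14 CPM (SD, n = 3), which is 2.64 as a log2 fold change (SE 0.18), from 67 to 125 reads in controls and 488 to 695 in mutants.

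Slc26a7 was the least abundant of the 3 genes. It was at 1.11, 2.80, 2.13 and 1.05 CPM in controls 1 to 4 and at 10.4, 11.5 and 7.58 CPM in mutants 6, 7 and 8. The groups did not overlap, but controls 2 and 3 stood above controls 1 and 4, and the spread among controls was wide relative to the mean (coefficient of variation 47.7%, against 14.0% for Hap1 and 23.6% for Corin). The mean went from 1.77 ± 0.84 CPM (SD, n = 4) to 9.82 ± 2.01 CPM (SD, n = 3), which is 2.46 as a log2 fold change (SE 0.32). The counts were 13 to 37 reads in controls and 97 to 133 in mutants. The exact Poisson 95% interval reached up to 51.0 reads for the highest control and down to 78.7 reads for the lowest mutant. These intervals cover counting error only and, with no molecular identifiers, understate it.

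**Figure D1:**
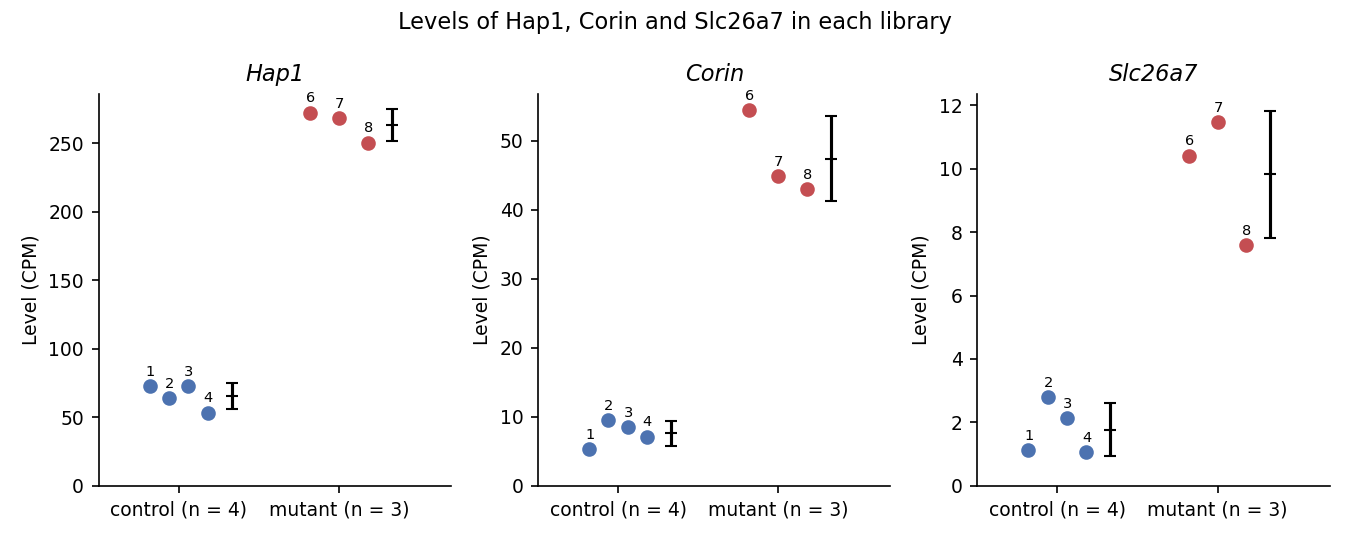
Level in CPM (y axis, from 0) of Hap1, Corin and Slc26a7 in 4 control libraries (blue) and 3 mutant libraries (red), numbered as in the labels; black bars are mean ± SD. In each gene every mutant lies above every control, at 250.5 to 272.3 CPM for Hap1, 42.9 to 54.4 CPM for Corin and 7.58 to 11.5 CPM for Slc26a7.

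Across all 16448 tested genes, the mutants lay above the controls without overlap in 11.2%, and 4.63% were called higher (edgeR adjusted p under 0.05). Since the 3 genes were chosen for their rise, nothing is read from their place in these shares. Among 735 called rises with a mean of at least 1 CPM, Corin ranked 8 by fold change, Slc26a7 15 and Hap1 38. The genes just beside them in that order were Gm48485 (2.64) and Nrap (2.59) around Corin, Gipr (2.47) and 5330429C05Rik (2.39) around Slc26a7, and Thbs1 (2.03) and Armh1 (1.98) around Hap1, all as log2 fold changes. Of these neighbours, Gipr, an incretin receptor, had the highest mean in mutants, at 27.1 CPM against 4.86 CPM in controls. Thbs1, a secreted matrix protein, was at 16.0 against 3.91 CPM.

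Levels can be compared between the 3 genes only per length. Whether reads outside exons were counted in these nuclear libraries is not given in the sources used here. The comparisons between genes below hold only if reads in exons alone were counted. Per kilobase of exon, Hap1 was at 17.4 ± 2.44, Corin at 1.40 ± 0.33 and Slc26a7 at 0.326 ± 0.156 in controls (CPM per kilobase, SD, n = 4). In mutants the same quantity was 70.0 ± 3.08, 8.77 ± 1.14 and 1.81 ± 0.37 (SD, n = 3). The order Hap1, Corin, Slc26a7 held in each of the 7 libraries, and no library of one gene overlapped another gene within a group. Placed among the tested protein-coding genes by this measure, Hap1 moved from percentile 79.2 in controls to 98.3 in mutants, Corin from 20.1 to 58.4 and Slc26a7 from 5.16 to 23.3. Hap1 exceeded Corin 9.68 to 19.6 times in controls and 7.18 to 8.59 times in mutants, without overlap. Its ratio to Slc26a7 overlapped between the groups, at 32.9 to 94.2 and 33.7 to 47.6, and so did the ratio of Corin to Slc26a7, at 3.40 to 6.81 and 3.93 to 5.69. Since the 3 genes were chosen for their rise on this contrast, nothing is read from a shift in these ratios.

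**Figure D2:**
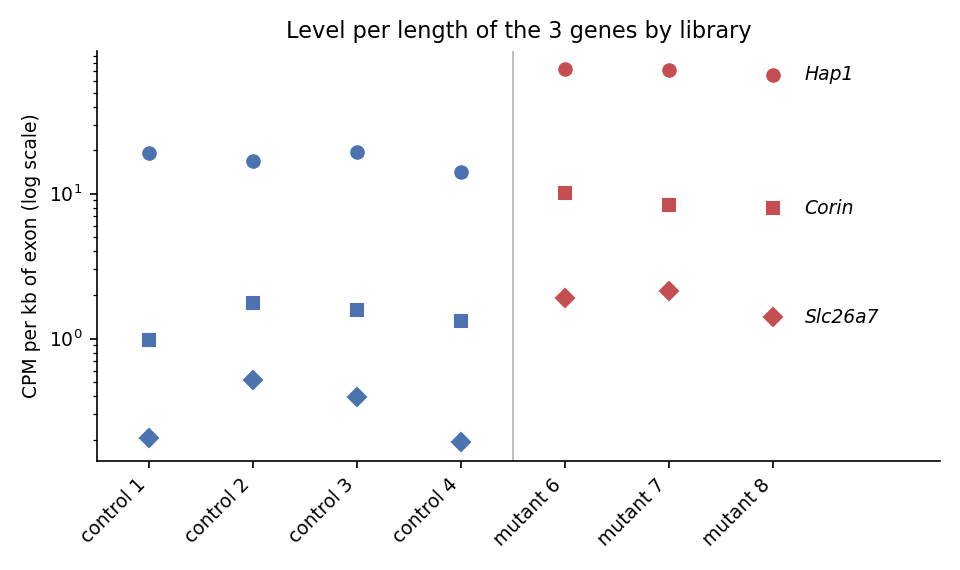
Level per length (CPM per kilobase of exon, log scale) of Hap1 (circles), Corin (squares) and Slc26a7 (diamonds) in each control (blue) and mutant (red) library. The order of the 3 genes is the same in all 7 libraries, from 14.1 to 72.3 for Hap1, 0.984 to 10.1 for Corin and 0.193 to 2.11 for Slc26a7.

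The libraries that stood apart moved these values little. With an offset for genomic length, the log2 fold changes were 2.04 for Hap1, 2.61 for Corin and 2.44 for Slc26a7. Without control 4 and mutant 8, the libraries that lack Y-linked reads, they were 1.96, 2.68 and 2.43. Leaving out 1 library at a time gave 1.92 to 2.07 for Hap1, 2.51 to 2.76 for Corin and 2.27 to 2.76 for Slc26a7.

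**Figure D3:**
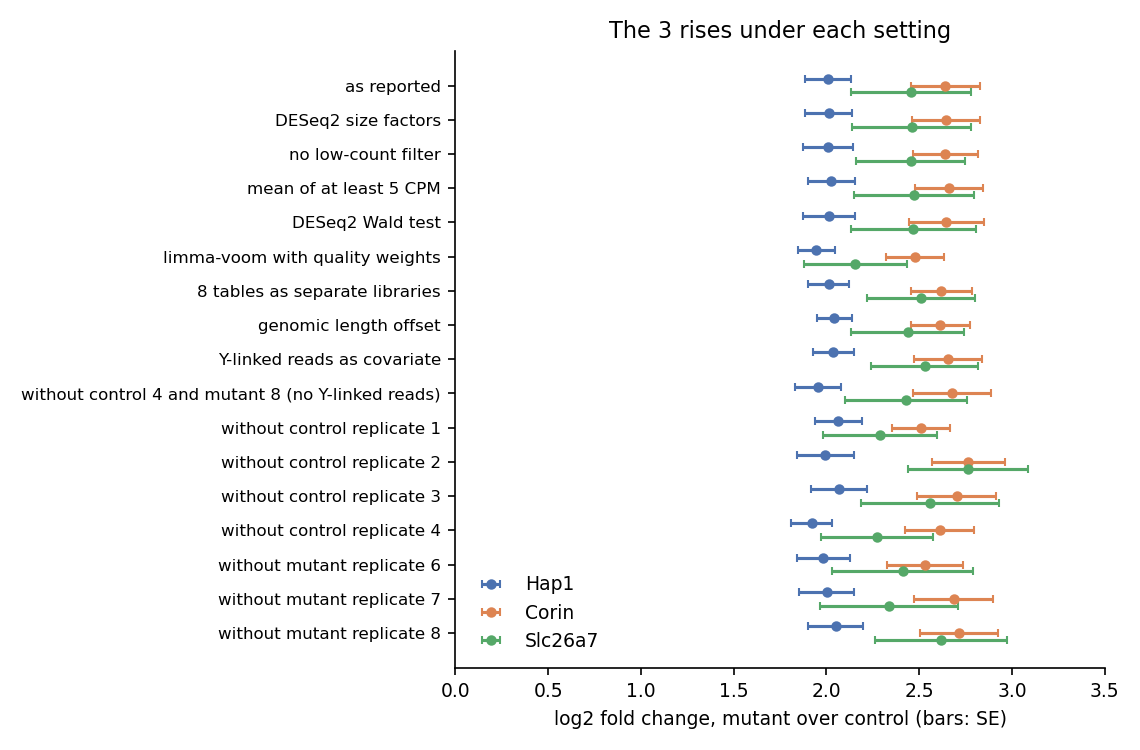
Log2 fold change of mutant over control (x axis, bars are SE) of the 3 genes as reported and under each other setting or without each library (y axis). Over all settings shown, Hap1 stays between 1.92 and 2.07, Corin between 2.48 and 2.76 and Slc26a7 between 2.16 and 2.76.

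The 3 genes lie on different chromosomes of the mouse genome (GRCm38), all on the minus strand. Hap1 (ENSMUSG00000006930.15, chromosome 11, 100347327 to 100356128) spans 8802 bases with 12 exon blocks, Corin (ENSMUSG00000005220.10, chromosome 5, 72300025 to 72504473) spans 204449 bases with 24, and Slc26a7 (ENSMUSG00000040569.13, chromosome 4, 14502430 to 14621805) spans 119376 bases with 20. A short gene and 2 long genes are thus among them, while their merged exons are of like size, at 3766, 5400 and 5431 bases. Of the span of Hap1 13.6% is shared with another annotated gene, and of that of Corin 26.1%, mostly with the antisense gene Gm20647. All genes that overlap Hap1 or Corin were listed at 0 in the 7 libraries, and exon bases were shared only between Corin and Gm20647 (147 bases, 2.72% of Corin's exon bases). Whether reads were counted by strand is not given in the sources used here, so reads that fall in these shared bases cannot be assigned to either gene alone.

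RefSeq start sites were available for Hap1 and Corin, 2 of the 3 genes, and the 250 bases before the start are shown to compare the promoters of genes that are high together in mutants. Both are on the minus strand of GRCm38.p6, at chr11:100356129-100356378 and chr5:72504541-72504790, written 5′ to 3′ with the last base next to the start. Capitals mark the only match to the motifs searched, a CCAAT box.
Hap1: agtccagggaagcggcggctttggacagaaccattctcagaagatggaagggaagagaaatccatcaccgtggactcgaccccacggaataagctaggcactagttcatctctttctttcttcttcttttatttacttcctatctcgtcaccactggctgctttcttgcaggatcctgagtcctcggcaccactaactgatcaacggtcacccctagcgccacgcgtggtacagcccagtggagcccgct
Corin: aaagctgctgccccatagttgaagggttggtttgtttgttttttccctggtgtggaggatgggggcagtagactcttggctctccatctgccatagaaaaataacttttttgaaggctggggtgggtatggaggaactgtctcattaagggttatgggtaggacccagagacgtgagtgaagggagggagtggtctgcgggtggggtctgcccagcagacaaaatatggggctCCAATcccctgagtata
Each window was searched on both strands for AGGTCA, the core motif bound by nuclear receptors. The same was done for the direct repeat with 4 spacer bases (DR4) of this core motif, typical of thyroid hormone receptors, and for 3 general promoter motifs. Neither window held AGGTCA, which 14.0% of 32851 RefSeq promoter windows of the same length hold. The direct repeat, which 5 of those windows hold, could then not be present either. Only exact matches within 250 bases were searched, so nothing is read from these absences about variant or more distant sites. The TATA box core TATAAA (12.4% of windows) was not found either, nor was the GC box core GGGCGG (32.7%). The CCAAT box (33.8%) was found once, in Corin. The share of G and C was 52.8% in Hap1 and 51.2% in Corin, close to the median of 52.4% over all windows.

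Hap1 lies 1.58 Mb from Thra on chromosome 11. Of the 87 other tested genes within 2 Mb of Thra, Hap1 included, 8 were called higher and 6 lower, where 9.42% of all tested genes were called in either direction. Hap1 was chosen for its rise, and Krt20, also in this window and called lower, reached the least count of the filter in controls only. Nothing is therefore read from this count. The surroundings of the 3 genes were described through the 3 nearest tested protein-coding genes on each side. Of these 18 genes, 3 were called higher and 1 lower, with a median log2 fold change of 0.12 against -0.01 over all tested genes. The 1 gene called lower, Krt20, passed the filter on low counts through the controls alone. Means below are given ± SD over 4 controls and 3 mutants.

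Next to Hap1, Jup, which encodes the junction protein plakoglobin and lies 12.8 kb away, rose from 8.42 ± 0.55 to 14.9 ± 2.12 CPM (0.82 on the log2 scale, SE 0.17, edgeR adjusted p 0.0088). P3h4, a collagen-modifying cofactor at 52.3 kb, rose from 6.34 ± 0.88 to 10.8 ± 1.30 CPM (0.77 on the log2 scale, SE 0.19, adjusted p 0.0244). On the other side Eif1, a translation initiation factor at 25.2 kb, was at 49.3 ± 8.73 CPM in controls and 49.2 ± 4.30 CPM in mutants. Krt20, a keratin gene at 909 kb, was at 3.73 ± 0.81 CPM in controls and 0.192 ± 0.040 CPM in mutants, on 38 to 63 reads and only 2 to 3 reads, and its fold change is not given. Without mutant 7 the count among the 18 genes was 2, with Jup no longer called (0.72 on the log2 scale, edgeR adjusted p 0.0634). That fit called 734 genes over all tested genes, against 1549 with all libraries. Without control 3 or a single mutant, whichever it was, P3h4 lost its call (0.68 to 0.85 on the log2 scale, adjusted p up to 0.129), as it did without the 2 libraries that lack Y-linked reads.

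Of the 6 genes beside Corin, edgeR, which called 9.42% of all tested genes, called 0, with 4 at an unadjusted p under 0.05. DESeq2, which called 12.1% of all tested genes, called 1 of the 6, and limma-voom, which called 19.1%, called 3. The closest of them, Nfxl1, 8.83 kb away, was at 37.0 ± 4.23 CPM in controls and 45.4 ± 5.06 CPM in mutants (log2 fold change 0.29, edgeR adjusted p 0.198). Zar1, a gene best known from oocytes, did not overlap between the groups, at 0.533 to 1.66 and 1.88 to 3.13 CPM (log2 fold change 1.35, adjusted p 0.0593), and it reached the least count of the filter in 2 of the 4 controls. It was called by DESeq2 and limma-voom, and by edgeR without control 2 (1.75 on the log2 scale, adjusted p 0.0281). EdgeR also called it with no low-count filter, the length offset, Y-linked reads as a covariate or the 8 tables as separate libraries. The GABA-A receptor genes Gabra4 and Gabrb1 were called by limma-voom, and by edgeR without control 1 (Gabra4, -0.40 on the log2 scale, adjusted p 0.0444) and without control 4 (Gabrb1, 0.92, adjusted p 0.0003). EdgeR called both with the length offset, and Gabra4 also with Y-linked reads as a covariate or with the 8 tables. Gabrb1 was also called without the 2 libraries that lack Y-linked reads. Of the 6 genes beside Slc26a7, Triqk, 1520 kb away, rose from 8.66 ± 1.01 to 15.3 ± 0.21 CPM (0.82 on the log2 scale, SE 0.16, adjusted p 0.0069). Lrrc69, whose end lies 1.81 kb from Slc26a7, was at 0.982 to 2.82 CPM in controls and 0.626 to 1.25 CPM in mutants (log2 fold change -0.73, adjusted p 0.414).

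**Figure D4:**
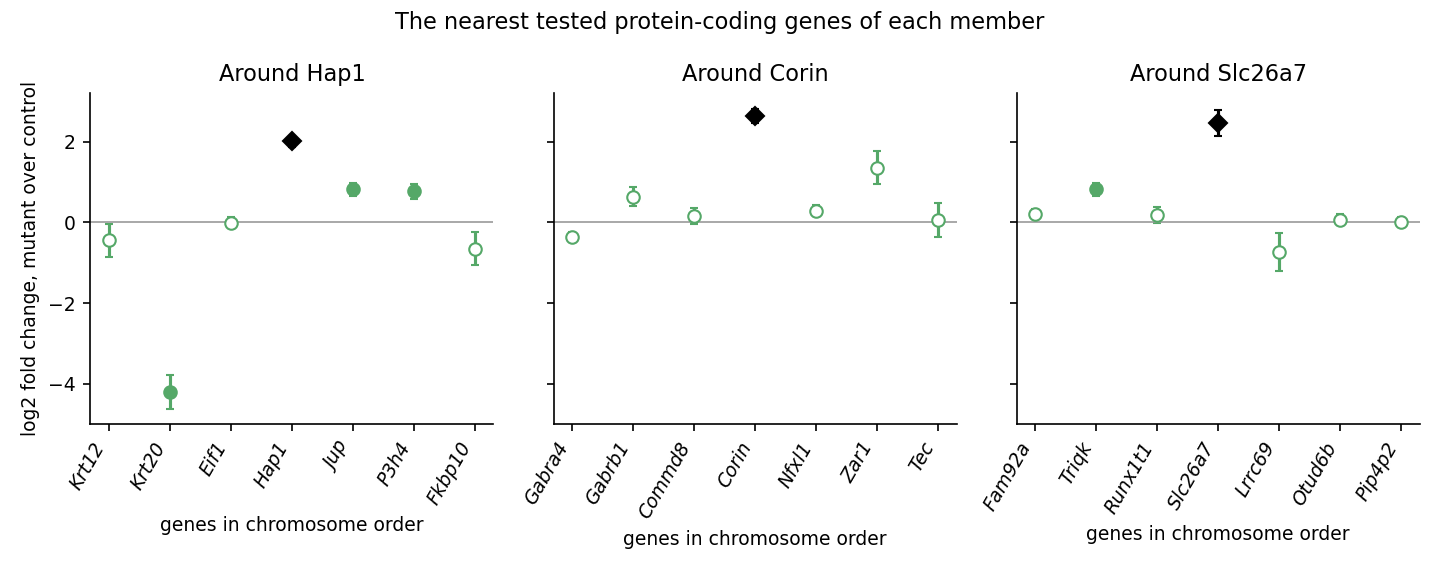
Log2 fold change of mutant over control (y axis, bars are SE) of Hap1, Corin and Slc26a7 (black diamonds) and of the 3 nearest tested protein-coding genes on each side (green circles, filled where edgeR called them), in chromosome order and not to scale. The filled circles are Jup and Triqk at 0.82, P3h4 at 0.77 and Krt20, which rests on 2 to 3 reads in mutants, far below 0.

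Partners and cargoes of Hap1 were followed through a list of 30 genes, of which 26 were tested. None of the 26 was called higher and 2 were called lower in edgeR's test, 8 had an unadjusted p under 0.05, and the median log2 fold change was -0.06. The 2 calls are 7.69% of the list, beside 9.42% of all tested genes. DESeq2 called 4 (15.4%, beside 12.1% of all tested genes) and limma-voom 8 (30.8%, beside 19.1%). The list was chosen with earlier results of these data known, so nothing is read from these shares. Itpr1, the inositol trisphosphate receptor of the endoplasmic reticulum to which Hap1 can bind, fell from 338.3 ± 38.4 to 150.6 ± 16.7 CPM (-1.17 on the log2 scale, SE 0.14, adjusted p 0.000259). The count was 7 without control 1, 4 without control 4 and 1 without any 1 of the other 5 libraries. Over all tested genes the calls were 2038, 2347 and 734 to 1046 in these fits, against 1549 with all libraries. Itpr1 was called in each of these fits.

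Huntingtin itself was not called: Htt was at 185.4 ± 9.20 CPM in controls and 199.2 ± 15.4 CPM in mutants (log2 fold change 0.10, edgeR adjusted p 0.651). Ahi1 was at 561.8 to 781.1 CPM in controls and 908.2 to 1083 CPM in mutants. Its groups did not overlap, but it did not pass edgeR's test over the 7 libraries (log2 fold change 0.54, SE 0.16, adjusted p 0.060). It passed without control 1 or without control 4 (0.56 and 0.45 on the log2 scale, adjusted p 0.0306 and 0.0381). Ahi1 was also called by DESeq2 and by limma-voom over the 7 libraries. EdgeR called it too with no low-count filter, with Y-linked reads as a covariate and with the 8 tables as separate libraries. Trak1 (-0.34) and Trak2 (-0.15), the mitochondrial adaptors that share a domain with Hap1, were not called by edgeR over the 7 libraries, while Trak1 was called by limma-voom, with the length offset and without control 1 (-0.41 on the log2 scale, edgeR adjusted p 0.0286). The kinesin and dynactin genes Kif5a, Kif5b, Kif5c, Klc1, Klc2 and Dctn1 had log2 fold changes from -0.10 to 0.17, and none was called. Hgs and Neurod1 were listed at 0 in every library.

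Substrates and the signalling of the natriuretic peptides were followed for Corin in a list of 16 genes. The substrate genes were almost absent: Nppa, the precursor of atrial natriuretic peptide, was at 0 to 0.238 CPM in controls and 0 to 0.184 CPM in mutants, and Nppb at 0 to 0.302 CPM and at 0. Both were left untested, and so was Npr1, the receptor of these peptides, at 0.381 to 0.756 and 0.391 to 0.551 CPM. The C-type peptide gene Nppc was measurable, at 12.6 ± 3.56 CPM in controls and 17.1 ± 0.32 CPM in mutants (log2 fold change 0.43, edgeR adjusted p 0.231). Its receptor Npr2 (-0.23), the clearance receptor Npr3 (0.76), and Pcsk6 (0.40) and Furin (0.23), proteases that process Corin or the peptides, did not pass edgeR's test over the 7 libraries. Nppc passed without control 1 (0.63 on the log2 scale, adjusted p 0.0253) and Npr3 without control 4 (0.87, adjusted p 0.0393), and both passed with limma-voom and with the length offset.

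Of the 12 tested genes of this list, 2 were called higher and 3 lower (41.7%, beside 9.42% of all tested genes), with a median log2 fold change of 0.00. Of these, Ostn reached the least count of the filter in the 3 mutants and 1 control only. Its call is not used as support, although the share above still counts it. The list was chosen with earlier results of these data known, so nothing is read from that share. Ostn, whose product osteocrin binds the clearance receptor, was at 0.316 ± 0.326 CPM in controls and 2.43 ± 0.32 CPM in mutants, on 1 to 10 and 27 to 31 reads. Prkg1, the type I cyclic GMP-dependent kinase, rose from 128.2 ± 58.9 to 287.1 ± 21.1 CPM (1.16 on the log2 scale, SE 0.26, edgeR adjusted p 0.0141). Prkg2, the type II kinase, fell from 36.2 ± 8.60 to 19.9 ± 1.97 CPM (-0.87 on the log2 scale, SE 0.18, adjusted p 0.0108). Mme, which encodes the peptide-degrading enzyme neprilysin, fell from 42.4 ± 2.41 to 16.2 ± 2.46 CPM (-1.39 on the log2 scale, SE 0.14, adjusted p 8.84e-05). Pde9a, a phosphodiesterase specific for cyclic GMP, fell from 77.7 ± 11.3 to 55.7 ± 4.92 CPM (-0.48 on the log2 scale, SE 0.13, adjusted p 0.0358). The count was 2 without mutant 6 and 3 without mutant 7 or mutant 8. Over all tested genes the calls in these fits were 766, 734 and 816, against 1549 with all libraries. Mme was called in each fit without 1 library, whereas Prkg1 lost its call without control 2, mutant 6 or mutant 7, Prkg2 without mutant 6 or mutant 8, and Pde9a without control 3 or any 1 of the 3 mutants. In these fits the adjusted p went up to 0.0736 for Prkg1 (1.10 to 1.19 on the log2 scale), 0.072 for Prkg2 (-0.89 to -0.78) and 0.182 for Pde9a (-0.55 to -0.42). Prkg1 also lost its call with no filter on low counts (adjusted p 0.166), and Pde9a without the 2 libraries that lack Y-linked reads.

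Other transmembrane serine proteases were at low levels. Of 15 listed genes 4 were tested. EdgeR, which called 9.42% of all tested genes, called 0 of the 4, with 1 at an unadjusted p under 0.05. DESeq2 and limma-voom, which called 12.1% and 19.1% of all tested genes, each called 1 of the 4. That gene was Hpn, the protease hepsin, at 6.30 ± 1.62 CPM in controls and 3.58 ± 0.32 CPM in mutants (log2 fold change -0.81, adjusted p 0.0725). It was called without control 2 (-0.97 on the log2 scale, adjusted p 0.0348). Tmprss5, Tmprss7 and Tmprss9 had log2 fold changes of 0.09, -0.66 and 0.22. St14, which encodes matriptase, stayed at or under 0.391 CPM in every library.

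The SLC26 family and other genes of bicarbonate transport were followed for Slc26a7 in a list of 28 genes, of which 21 were tested. Of these, 2 were called higher and 4 lower (28.6%, beside 9.42% of all tested genes), and the median log2 fold change was -0.13. This list too was chosen with earlier results of these data known, so nothing is read from its share. Within the SLC26 family, Slc26a11 rose from 6.71 ± 0.78 to 11.5 ± 0.91 CPM (0.78 on the log2 scale, SE 0.18, edgeR adjusted p 0.0159). Slc26a2 (0.00), a sulfate transporter, Slc26a4 (0.36), which encodes the thyroid iodide transporter pendrin, Slc26a6 (0.11), Slc26a8 (-0.33) and Slc26a10 (-0.57) were not called by edgeR, and limma-voom called Slc26a8 alone among these 5 (adjusted p 0.0242). Slc26a1 was listed at 0, and Slc26a3 and Slc26a5 had at most 5 reads in any library. Slc26a9 was not tested, with 0, 1, 0 and 0 reads in controls 1 to 4 and 5, 4 and 7 reads in mutants 6, 7 and 8.

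Outside that family, Car12, a membrane-bound carbonic anhydrase, rose from 2.71 ± 0.20 to 5.69 ± 0.72 CPM (1.07 on the log2 scale, SE 0.22, edgeR adjusted p 0.0103). Car4, which is also anchored at the cell surface, fell from 71.5 ± 9.64 to 29.1 ± 5.23 CPM (-1.30 on the log2 scale, SE 0.15, adjusted p 0.000223). Slc4a8, a sodium-driven chloride and bicarbonate exchanger of neurons, fell from 139.1 ± 7.68 to 63.6 ± 7.04 CPM (-1.13 on the log2 scale, SE 0.11, adjusted p 8.84e-05). Car11 (-0.56, adjusted p 0.0247) and Slc4a4 (-0.54, adjusted p 0.0366) also fell. Slc4a4 is a marker of astrocytes as well. The count was 3 without control 3, mutant 6 or mutant 7 and 2 without mutant 8. Over all tested genes the calls in these fits were 1016, 766, 734 and 816, against 1549 with all libraries. Car4 and Slc4a8 were called in each of these fits, whereas Car11, Car12, Slc26a11 and Slc4a4 each lost their call without 2 or more of the libraries. Those were mutants 6 and 8 for Car12 (adjusted p up to 0.0583), control 3 and each mutant for Car11 (up to 0.164), controls 2 and 3 and mutants 7 and 8 for Slc26a11 (up to 0.088), and controls 2 and 3 and each mutant for Slc4a4 (up to 0.188). Car12, Slc26a11 and Slc4a4 also lost their call without the 2 libraries that lack Y-linked reads.

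**Figure D5:**
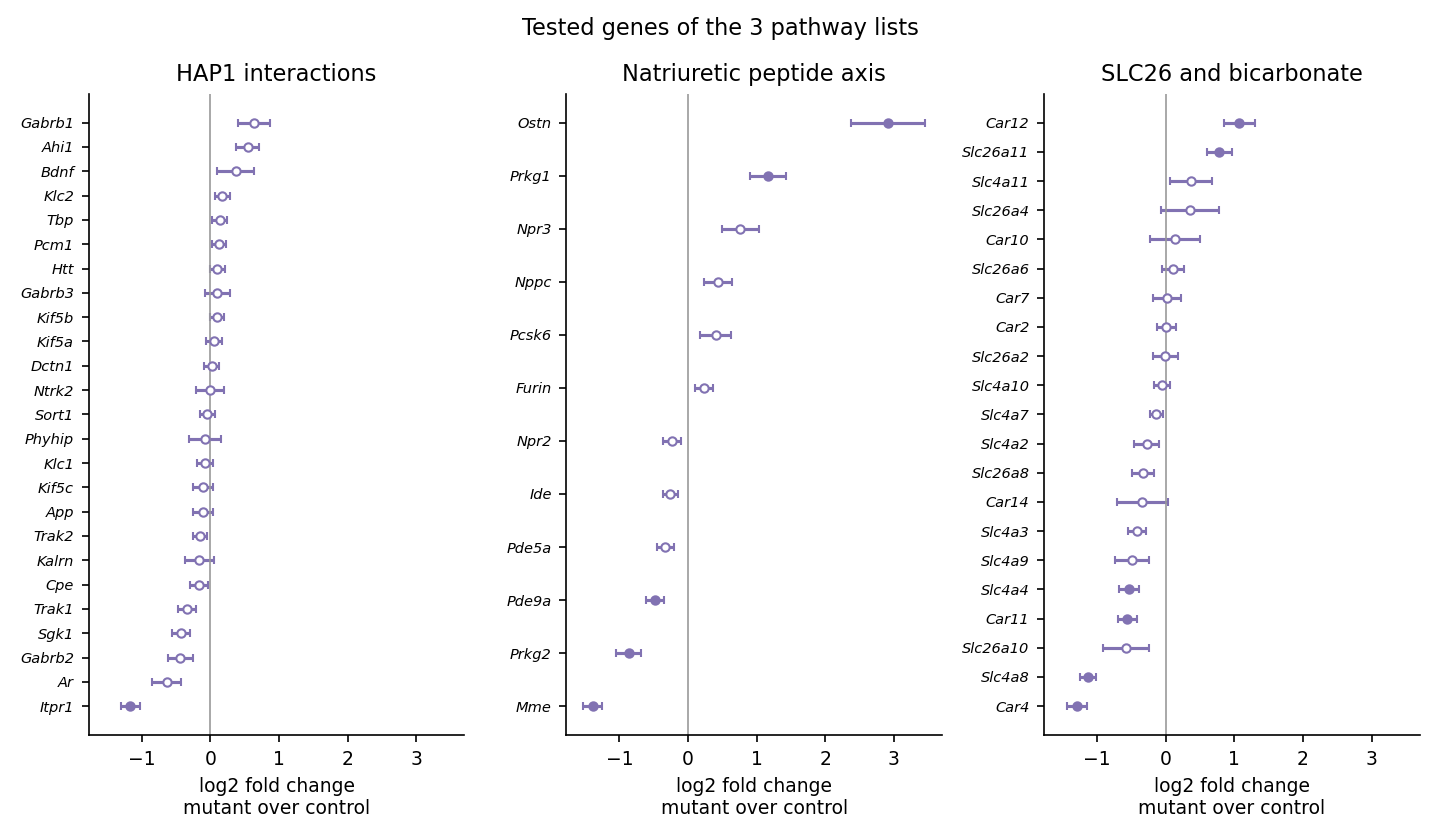
Log2 fold change of mutant over control (x axis, bars are SE) for the tested genes of the lists around Hap1 (25 genes shown), Corin (12) and Slc26a7 (21), filled where edgeR called the gene. Filled genes include Itpr1 at -1.17 around Hap1, Prkg1 at 1.16 and Mme at -1.39 around Corin, and Car12 at 1.07 and Car4 at -1.30 around Slc26a7; Ostn, the highest point, rests on 1 to 10 reads in controls.

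The genes most like each of the 3 over the 7 libraries were found by Pearson's correlation of log2 CPM, given as a description since the libraries form 2 groups. Hap1 was most like Asl (0.996), an enzyme of arginine synthesis, L3mbtl1 (0.996), a chromatin protein, and Spint2 (0.995), an inhibitor of serine proteases. Corin was most like Sgsm2 (0.998), a regulator of Rab proteins, the fibrillin gene Fbn2 (0.995) and the receptor phosphatase gene Ptprf (0.994). Slc26a7 was most like Rapgef6 (0.994), an activator of Rap proteins, Ptprf (0.989) and Triobp (0.989), which encodes an actin-binding protein. The log2 fold changes of these 8 genes ran from 0.36 for Rapgef6, which was not called (edgeR adjusted p 0.0665), to 1.60 for Spint2. The 3 genes themselves correlated at 0.946 to 0.974 with one another, and 184 genes for Hap1, 183 for Corin and 148 for Slc26a7 had a correlation above 0.95. Since the 3 genes were chosen for a rise between the same 2 groups, nothing is read from these correlations.

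Markers of neuron classes within the sorted nuclei differed between the groups as well, and the counts below stand beside 9.42% of all tested genes called. Of 11 parvalbumin neuron markers 5 were called lower and 1 higher. Their summed level overlapped at 4610 to 7301 CPM in controls and 5762 to 7016 CPM in mutants. Most of this sum came from Erbb4 (2460 to 4082 and 3405 to 4343 CPM) and Kcnc2 (1093 to 1961 and 1697 to 1901 CPM), neither called by edgeR. Pvalb itself was at 35.7 to 47.8 CPM in controls and 1.28 to 2.58 CPM in mutants. Of 9 somatostatin neuron markers 3 were called higher and 2 lower, with a summed level of 1038 to 1085 CPM in controls and 1276 to 1528 CPM in mutants. Sst was at 218.8 to 331.5 and 429.7 to 565.8 CPM. Without Sst, picked after its values were seen, the sums were 747.1 to 819.1 and 846.4 to 962.4 CPM, also without overlap. Of 8 VIP neuron markers 3 were called higher and 2 lower (summed 377.9 to 574.5 and 551.8 to 577.1 CPM), and of 8 LAMP5 neuron markers 2 higher and 1 lower (summed 979.7 to 1161 and 1076 to 1395 CPM). None of these markers was listed at 0, and the part of the neuron classes in the rise of the 3 genes was not tested.

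Markers of other cells that the sort could hold were examined in the same way. The 10 hypothalamic markers summed to 7.90 to 11.9 CPM in controls and 6.98 to 10.2 CPM in mutants, with Avp and Otp listed at 0 and 8 of the 10 too low to be tested, Hap1 being abundant in that region. Agrp reached 8.37 CPM and the other 9 at most 2.93 CPM in any library. The 8 striatal projection neuron markers summed to 164.4 to 227.9 and 228.8 to 271.4 CPM, with Rgs9 called higher. The 9 glutamatergic markers summed to 256.2 to 389.9 and 234.8 to 296.9 CPM and the 6 olfactory bulb markers to 78.1 to 98.3 and 83.5 to 105.3 CPM, with 0 calls by edgeR in either list. Astrocyte markers summed to 234.5 to 308.0 and 183.3 to 206.7 CPM (1 of 5 tested called, lower, and Gfap listed at 0), and oligodendrocyte markers to 149.9 to 177.9 and 168.1 to 196.9 CPM (1 of 7 called, higher). Microglia markers summed to 13.2 to 18.1 and 18.2 to 21.7 CPM (P2ry12 listed at 0), and endothelial markers to 44.9 to 94.8 and 46.2 to 67.5 CPM. The groups did not overlap in the striatal, astrocyte and microglia sums, but 1 gene, picked after its values were seen, set this apart in each. Without Rgs9 the striatal markers summed to 122.0 to 180.4 CPM in controls and 132.5 to 166.2 CPM in mutants. Without Slc4a4 the astrocyte sums were 39.0 to 66.9 and 44.2 to 49.9 CPM, and without Csf1r the microglia sums were 6.50 to 10.1 and 8.08 to 9.93 CPM, all of them overlapping. The part of these cells in the rise of the 3 genes was not tested.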

How the data were processed

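Each deposited table gives raw read counts by gene for 1 library of nuclear RNA, with no normalization that the labels record. SMART-Seq v4 cDNA and Nextera XT libraries were used, per the labels' protocols, without molecular identifiers, so counting intervals understate the error. Per the submitters' processing notes, Bowtie2 2.5.3 and the builds mm10 and GRCm38 were used; the counting program is not given in the sources used here. All 55450 identifiers were found in GENCODE M21. The analysis used edgeR 4.0.16 under R 4.3.3: filterByExpr (least count 10, least total 15), TMM scaling, and a robust quasi-likelihood test with group as the only term over 16448 tested genes. A gene was called at a Benjamini-Hochberg adjusted p under 0.05, two-sided. SE is the log2 fold change divided by the square root of F. CPM were scaled by TMM, and log2 CPM used a prior count of 2. The design was written for 4 controls and 3 mutants, with the repeat of mutant 7 left out once checked.

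DESeq2 1.42.0, limma 3.58.1 and the other settings of the closing section served as alternatives. The fit was tested on simulated counts. Genes were named by rule: the 3 genes, the 3 most correlated with each, called list genes, set partners, chromosomal neighbours and neighbours in rank. The 3 genes, lists and rules were chosen with earlier results of these data known. The results of 2 genes of the Hap1 list are not reported here, though they stay in its counts.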

Additional observations from a re-analysis of the deposited data

Results flagged for a closer look

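Single libraries far from the rest were looked for in the 4 controls, over 82 values: the named genes and the summed markers of each cell type. A control was marked where its gap to the nearest other control, as a share of the whole range, passed the 95% limit of Dixon for groups of 4. Chance gives about 1 in 20, or 4.1 of 82, and 5 were found; Hap1, Corin and Slc26a7 were not among them.

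Control 4 stood apart in 3 genes. Gipr, next to Slc26a7 by fold change, had 2.90 CPM in control 4, below the 5.37 to 5.79 CPM of the other controls. Gabra4, a neighbour of Corin, was at 127 CPM against 93.5 to 96.8 CPM. Lrrc69, the closest neighbour of Slc26a7, was at 2.82 CPM against 0.982 to 1.14 CPM. Control 2 stood apart for Slc26a9, at 0.0756 CPM or 1 read against 0 in the others. With 0 in the others any single read passes the limit, so nothing is read from this mark. Control 1 had the lowest sum of striatal projection neuron markers, 164 CPM against 224.0 to 228.0 CPM.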

How the results depend on the processing

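The log2 fold changes of Hap1, Corin and Slc26a7 kept their direction and moved by less than 1 SD of the libraries in each of 9 other settings and in each fit without 1 library. Over the settings they were 1.95 to 2.04, 2.48 to 2.68 and 2.16 to 2.53. Leaving out 1 library gave 1.92 to 2.07, 2.51 to 2.76 and 2.27 to 2.76. Counts of called genes moved more, and the cause was not tested. Over all tested genes the count of 1549 became 3147 with limma-voom and quality weights and 2753 with the genomic length offset. It became 2530 with the 8 tables as separate libraries, which enters mutant 7 a second time. It was 1989 with DESeq2, 1721 with Y-linked reads as a covariate and 1702 with no low-count filter. It fell to 1261 with only genes at a mean of at least 5 CPM tested, and to 1416 without control 4 and mutant 8. In the Hap1 list 2 calls became 4 with no low-count filter, with DESeq2 and with Y-linked reads as a covariate, 5 with 8 tables, 7 with the length offset and 8 with limma-voom. In the Corin list 5 became 6 with 8 tables, 8 with the length offset and 9 with limma-voom. It became 4 with only genes at a mean of at least 5 CPM tested, and also without control 4 and mutant 8. With no low-count filter that count stayed at 5, but Prkg1 was lost (adjusted p 0.166) and Npr3 gained. Among the serine proteases 0 became 1 with DESeq2, limma-voom, 8 tables and the length offset. In the Slc26a7 list 6 became 9 with limma-voom, and 7 with DESeq2, 8 tables, the length offset or no low-count filter. It became 5 with only genes at a mean of at least 5 CPM tested, and 4 without control 4 and mutant 8. Among the 18 chromosomal neighbours 4 became 7 with limma-voom and with the length offset, and the 9 other settings ran from 3 to 7. Without 1 library the counts ran from 734 to 2347 over all genes, 1 to 7 in the Hap1 list, 2 to 6 in the Corin list, 0 to 1 among the proteases, 2 to 8 in the Slc26a7 list and 2 to 5 among the neighbours. Depth limits Slc26a7 most, with 13 reads in control 4. No paired analysis was possible because controls and mutants share no replicate numbers.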
